A study of Macaca mulatta with 45 samples.

Results

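GPR17 (ENSMMUG00000004180), 1 of 30246 gene IDs counted in these rhesus macaque brain libraries, was selected on its measured group levels, which were lowest in irradiated brain in all 3 regions. It was lowest after fractionated whole brain irradiation (fWBI), at 17.5% of its control level in white matter, 17.7% in hippocampus and 11.9% in the prefrontal cortex. After total body irradiation (TBI) it was at 56.8% of control in hippocampus and 54.3% in prefrontal cortex. In white matter it was at 81.7% of control after TBI, with overlapping values. Because these group levels are what chose the gene, they are given with their spread and standard errors (SE) as a description and carry no p-value.

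GPR17 encodes a G protein-coupled receptor of the oligodendrocyte lineage, related in sequence to the P2Y nucleotide receptors and to the cysteinyl leukotriene receptors. In rodents it is absent from the earliest oligodendrocyte precursors, appears as precursors commit to differentiation, is highest in premyelinating cells and is switched off in myelinating oligodendrocytes. In mice, keeping it on holds differentiation back and its loss speeds differentiation, and its natural ligand is debated.

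The study sequenced ribosomal RNA-depleted total RNA from 15 animals, 5 in each group, with 1 library per animal from each of 3 regions. The fWBI animals received 40 Gy to the brain as 8 fractions of 5 Gy and were examined after 12 months. The TBI animals received a single dose, 6.75 Gy in animals 1 and 2, 7.2 Gy in animals 3 and 4 and 8.05 Gy in animal 5, between 6 and 9 years before necropsy. The control animals were not unirradiated, since they had 10 Gy to the thorax, with about 0.1 Gy reaching the brain. The regions were white matter (taken from the centrum semiovale), the hippocampus and the dorsolateral prefrontal cortex (Brodmann area 46). Dose, schedule and time since exposure all differ between fWBI and TBI and cannot be told apart, and the labels used here give no ages. Replicate n is the same animal in every region of its group.

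Levels are given as CPM, a gene's counts scaled to a library size adjusted for composition. CPM does not correct for gene length, so levels are compared within a gene. Library totals lay between 6625435 and 12541507 counts, and the mean level of GPR17 was at percentile 32.7 of the genes tested. Defining markers matched the labelled regions, with summed myelin markers (7 genes) at 21340 to 53820 CPM in the white matter libraries and at most 5653 CPM in the others. Control white matter replicates 1 and 3 stood apart, with 13 pan-neuronal markers summing to 8396 and 3973 CPM, against 582 to 745 CPM in the other 3 control white matter libraries. Some white matter values and counts that moved when these libraries were left out are also given without them. Others are given only with all libraries, so an unmarked white matter value may also have moved.

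In white matter, GPR17 was low in every fWBI animal. It had 2.72, 2.88, 5.37, 6.66 and 3.22 CPM in fWBI animals 1 to 5, from 28 to 67 counts per library. The TBI animals had 18.1, 21.0, 16.6, 23.3 and 18.9 CPM, and the controls 15.5, 28.1, 20.5, 26.9 and 28.7 CPM. All 5 fWBI values lay below all TBI and control values, whereas all 5 TBI values lay within the control range. Of 15235 genes tested in white matter, 4.05% had all fWBI values below all control values, 3.63% had all fWBI values below all TBI values, and 1.06% had all TBI values below all control values. The means were 4.17 ± 1.76 CPM after fWBI, 19.6 ± 2.59 CPM after TBI and 23.9 ± 5.76 CPM in controls (SD, n = 5 each). The fitted log2 fold change was -2.52 ± 0.24 (SE) for fWBI over control, a 5.72-fold lower level, and 89 of the genes tested had a larger negative fold change. The TBI difference from control was -0.29 ± 0.23. The 2 lowest control values, 15.5 and 20.5 CPM, came from the libraries with the raised pan-neuronal markers. Without them the TBI difference was -0.51 ± 0.23, and the highest TBI value, 23.3 CPM, lay below the remaining controls at 26.9 to 28.7 CPM. With fewer controls such a separation arises more easily, and its share over all genes was not computed.

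In hippocampus, the GPR17 values of the 3 groups did not overlap. The fWBI animals 1 to 5 had 0.699, 0.712, 1.49, 2.65 and 2.13 CPM, from 6 to 33 counts, the TBI animals 4.29, 5.06, 4.27, 5.58 and 6.08 CPM, and the controls 8.40, 7.93, 11.8, 9.64 and 6.61 CPM. The highest TBI value of 6.08 CPM lay below the lowest control value of 6.61 CPM. All fWBI values below all control values were seen in 0.86% of 15357 genes, all TBI values below all control values in 0.86%, and all fWBI values below all TBI values in 0.853%. The means were 1.54 ± 0.863 CPM after fWBI, 5.06 ± 0.793 CPM after TBI and 8.88 ± 1.97 CPM in controls (SD, n = 5 each). The log2 fold change was -2.50 ± 0.30 for fWBI over control, with 4 genes lower still. It was -0.82 ± 0.27 for TBI over control, with 348 genes lower still.

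In prefrontal cortex GPR17 was at its lowest. The fWBI animals 1 to 5 had 0.928, 0.562, 0.642, 0.706 and 0.941 CPM, which rest on 10, 6, 7, 7 and 9 counts. A count of 6 has an exact Poisson 95% interval of 2.20 to 13.1, which covers counting error only, so differences among the fWBI cortex libraries were not detectable at this depth. The TBI animals had 3.74, 3.87, 2.78, 4.14 and 2.99 CPM, and the controls 9.06, 4.43, 7.78, 6.90 and 4.50 CPM. The groups did not overlap, although the highest TBI value of 4.14 CPM and the lowest control value of 4.43 CPM were close. Of 15531 genes tested, 1.44% had all fWBI values below all control values, 1.33% all TBI values below all control values and 0.625% all fWBI values below all TBI values. The means were 0.756 ± 0.171 CPM after fWBI, 3.50 ± 0.586 CPM after TBI and 6.53 ± 2.04 CPM in controls (SD, n = 5 each). The log2 fold change was -3.08 ± 0.27 for fWBI over control, an 8.44-fold difference with 4 genes lower still, and -0.88 ± 0.22 for TBI over control.

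**Figure D1:**
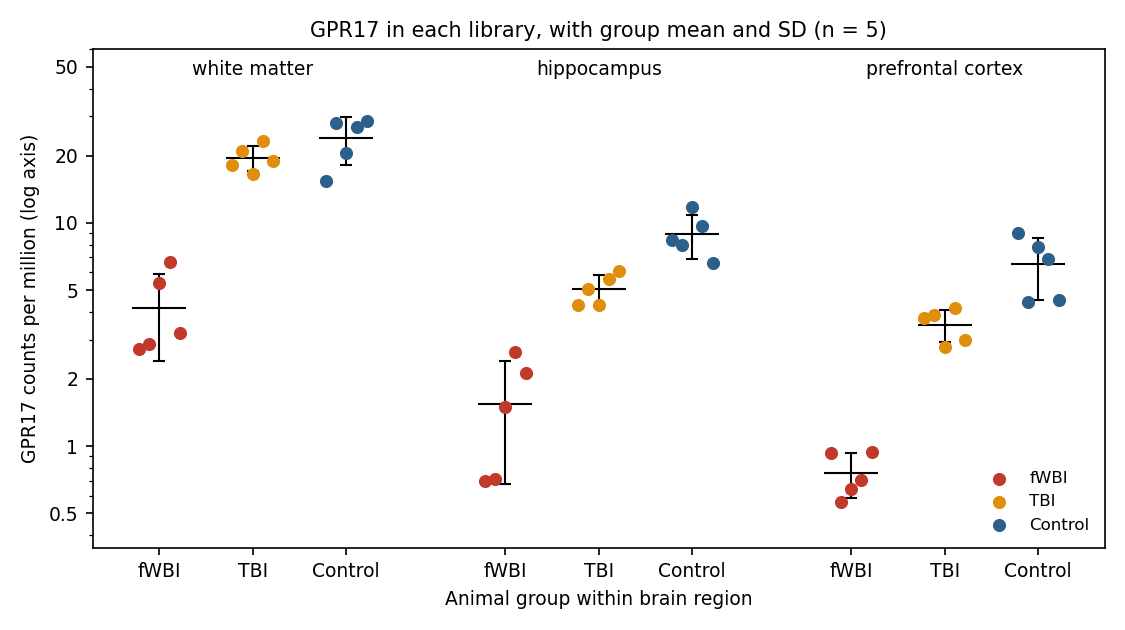
GPR17 CPM (log axis) in each of 45 libraries, by animal group within each brain region; points are libraries (animals 1 to 5 from left to right), horizontal lines group means and bars 1 SD (n = 5). The fWBI libraries lie below all others of their region, and the TBI libraries lie below the controls in hippocampus and prefrontal cortex but inside the control range in white matter.

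Read as 1 order over the 9 groups, mean GPR17 ran from control white matter through TBI white matter, control hippocampus, control prefrontal cortex, TBI hippocampus, fWBI white matter, TBI prefrontal cortex and fWBI hippocampus down to fWBI prefrontal cortex. Only 2 neighbouring pairs in that order had ranges that did not overlap, TBI white matter above control hippocampus and TBI prefrontal cortex above fWBI hippocampus. The other 6 neighbouring pairs overlapped. The range of fWBI white matter, 2.72 to 6.66 CPM, overlapped those of TBI hippocampus at 4.27 to 6.08 CPM and TBI prefrontal cortex at 2.78 to 4.14 CPM.

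Set directly against TBI, fWBI gave GPR17 log2 fold changes of -2.22 ± 0.24 in white matter, -1.68 ± 0.31 in hippocampus and -2.20 ± 0.28 in the prefrontal cortex. The fWBI over control and TBI over control values share the control libraries and are therefore not independent of each other.

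**Figure D2:**
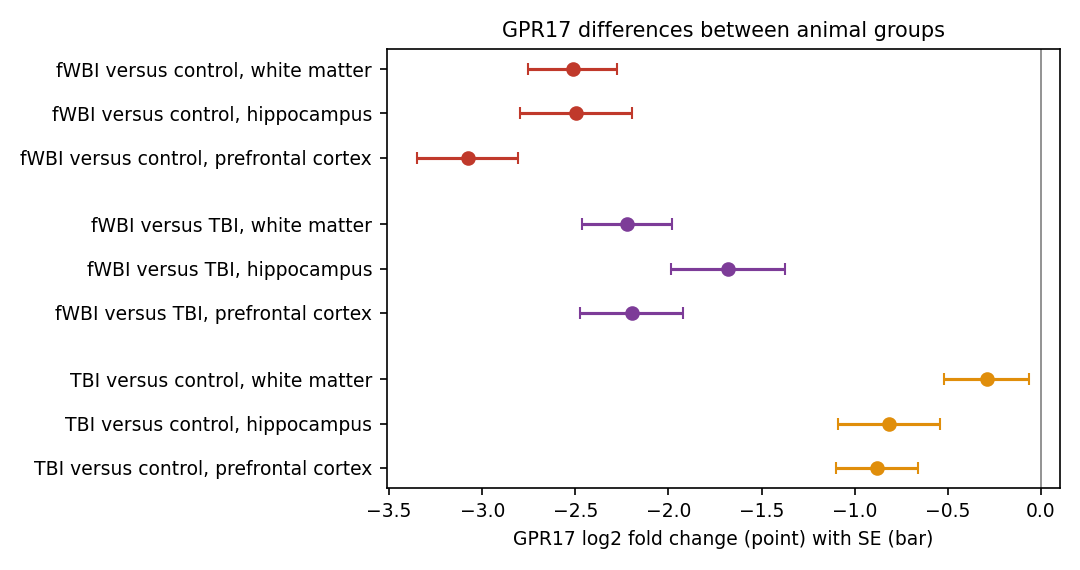
GPR17 log2 fold changes between animal groups in each region, as edgeR estimates (points) with their SE (bars). All 9 are below 0, from -3.08 for fWBI over control in prefrontal cortex to -0.29 for TBI over control in white matter.

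GPR17 also differed between regions in the controls. In the 5 control animals the white matter level of GPR17 exceeded that of prefrontal cortex by 1.92 ± 0.25 on the log2 scale and that of hippocampus by 1.47 ± 0.25, with no overlap between white matter and either grey region. All control white matter values above all control cortex values were seen in 19% of 15406 genes, and above all control hippocampus values in 17.7%. These differences were 2.38 and 1.91 once control white matter replicates 1 and 3 were left out. Hippocampus and prefrontal cortex differed by 0.45 ± 0.26, and their values overlapped.

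The differences between regions in the GPR17 fold change are given with their SE and no test, since they rest on the levels that chose the gene. They are read neither as the presence nor as the absence of a regional difference. The fWBI fold change in white matter minus that in prefrontal cortex was 0.49 ± 0.37, in hippocampus minus prefrontal cortex 0.51 ± 0.40 and in white matter minus hippocampus -0.01 ± 0.33. With control white matter replicates 1 and 3 left out, the first became 0.03 and the last -0.46. For TBI the differences were 0.58 ± 0.30 for white matter minus prefrontal cortex, 0.08 ± 0.32 for hippocampus minus prefrontal cortex and 0.50 ± 0.29 for white matter minus hippocampus. The white matter differences of TBI were 0.12 and 0.06 without those libraries. The TBI fold change of white matter was thus closer to those of the grey regions when they were left out.

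Genes of the stages around GPR17 were described from lists, and tested by the edgeR quasi-likelihood method at an adjusted p (Benjamini-Hochberg, over all genes) under 0.05. In whole tissue, fewer cells of a type and less RNA per cell cannot be told apart. Of 16 genes of the earlier oligodendrocyte precursors, 13 fell and 0 rose after fWBI in white matter, where 8.03% of all genes fell. Their median log2 fold change was -1.58, against -0.03 over all genes. The smallest p-values belonged to TNR, the matrix glycoprotein tenascin-R, which fell by 4.61 ± 0.28 (adjusted p = 2.98e-07), and to the adhesion molecule DSCAM (-2.91 ± 0.23). The membrane metalloproteinase MMP16 (-3.26 ± 0.26), LUZP2 (-3.31 ± 0.31) and the protocadherin PCDH15 (-3.79 ± 0.37) followed. PDGFRA, the growth factor receptor that defines early precursors, fell little, by 0.31 ± 0.09 (adjusted p = 0.0304), and SMOC1, XYLT1 and SOX6 did not pass. DSCAM and PCDH15 are among the precursor genes that neurons also express. When the 2 control libraries were left out, 12 of the 16 fell, with PDGFRA at -0.25 (adjusted p = 0.146). DSCAM was then at -2.44, MMP16 at -2.92 and LUZP2 at -2.92, with TNR at -4.59 and PCDH15 at -3.91.

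In the grey regions fewer precursor genes passed. In hippocampus 3 of 16 fell after fWBI, against 0.215% of all genes: the proteoglycan CSPG4 by 1.27 ± 0.22 (adjusted p = 0.01), PCDH15 by 1.28 ± 0.23 (adjusted p = 0.0112) and the endocytic adaptor EPN2 by 0.58 ± 0.10 (adjusted p = 0.00947). That count was 0 when only fWBI and control libraries were fitted and 7 without control replicate 2. In prefrontal cortex 5 of 16 fell, against 0.367% of all genes. They were PCDH15 (-0.93 ± 0.11), LHFPL3 (-1.70 ± 0.24), the proteoglycan VCAN (-0.93 ± 0.18), EPN2 (-0.63 ± 0.12) and CA10 (-0.38 ± 0.09), and the count was 2 without fWBI replicate 3 and 2 without control replicate 3. The list medians were -0.55 in hippocampus and -0.60 in prefrontal cortex, with all-gene medians of -0.01 and -9.4e-05. PDGFRA was at 0.01 ± 0.08 in hippocampus and 0.09 ± 0.14 in prefrontal cortex and did not pass (adjusted p = 0.99 and 0.826).

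GPR17 was also set against PDGFRA, which fell little in white matter and did not pass in the grey regions. The ratios therefore largely restate the GPR17 levels, and they do not compare GPR17 with the precursor genes that fell more. The share of all genes with such a separation was not computed. Per 100 PDGFRA counts of the same library, prefrontal cortex held 0.476 to 1.11 GPR17 counts after fWBI, 2.69 to 3.92 after TBI and 3.98 to 13.0 in controls. Hippocampus held 0.736 to 2.89 after fWBI, 4.43 to 6.60 after TBI and 6.67 to 15.1 in controls, and white matter 3.88 to 10.6 after fWBI, 19.2 to 31.2 after TBI and 17.7 to 39.2 in controls. The fWBI ratios lay below all others in each region, and the TBI ratios lay below all control ratios in hippocampus and prefrontal cortex. Counts per gene depend on gene length, so these ratios compare groups and not the amounts of both transcripts.

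Genes that mark the same stage as GPR17, or the one just after it, mostly did not pass. Of 12 tested genes of committed precursors and newly formed oligodendrocytes, 1 fell and 1 rose after fWBI in white matter, near the shares over all genes (8.03% fell and 8.82% rose), with a list median of -0.01. BMP4, a secreted factor of committed precursors, fell by 1.98 ± 0.34 (adjusted p = 0.000894), and TNS3, a focal adhesion protein of newly formed oligodendrocytes, rose by 0.47 ± 0.14 (adjusted p = 0.0328). BMP4 had 2.81, 2.67, 0.811, 3.08 and 2.46 CPM in fWBI white matter, against 3.95, 7.56, 11.2, 11.8 and 12.9 CPM in control white matter, without overlap. All fWBI values lay below all control values there in 4.05% of all genes. Once control white matter replicates 1 and 3 were left out, TNS3 no longer passed (0.33, adjusted p = 0.152). BCAS1, a marker of early myelinating cells, then did (-0.60, adjusted p = 0.0355). In hippocampus 0 of 12 passed by edgeR, with 1 at an unadjusted p under 0.05 and 0 by DESeq2. BMP4 was at -0.59 ± 0.46 and NEU4 at -0.58 ± 0.38 there. In prefrontal cortex 1 of 12 fell, the sialidase NEU4 by 1.72 ± 0.35 (adjusted p = 0.0251). NEU4 had 5.48, 1.59, 2.29, 4.34 and 0.941 CPM there in fWBI animals, against 10.5, 9.85, 9.40, 13.2 and 6.34 CPM in controls. The list had 0 lower genes without fWBI replicate 2 or 3 or control replicate 3 or 4.

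Among 8 tested transcription factors of the lineage, OLIG2, which specifies the lineage, fell after fWBI in every region. Its log2 fold changes were -0.70 ± 0.17 in white matter, -1.50 ± 0.26 in hippocampus and -2.26 ± 0.16 in the prefrontal cortex, with adjusted p of 0.0108, 0.0103 and 1.68e-06. MYT1, a zinc finger factor of progenitors, fell by 4.45 ± 0.28 in white matter. It did not pass in the grey regions. MYRF, the master regulator of myelin genes, was at 0.06 ± 0.30, -0.38 ± 0.45 and -0.38 ± 0.48 in white matter, hippocampus and prefrontal cortex and did not pass. ID2 and ID4, inhibitors of differentiation tied to GPR17 signalling in mice, did not pass in any region either.

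Myelin genes did not pass. Of 7 tested genes of mature oligodendrocytes, 0 changed by edgeR in white matter, hippocampus or prefrontal cortex after fWBI. At an unadjusted p under 0.05 there were 2, 0 and 1 lower genes, and by DESeq2 1, 0 and 0. MBP, the myelin basic protein gene, was at -0.62 ± 0.23 in white matter (adjusted p = 0.0758), -0.25 ± 0.37 in hippocampus and -0.97 ± 0.38 in the prefrontal cortex. Without control white matter replicates 1 and 3, however, 4 of the 7 fell in white matter, among them MAL by 0.49, UGT8 by 0.73 and MBP by 0.83, with adjusted p of 0.00749 to 0.0173 for these 3. The number of myelin genes that passed in white matter thus turned on these 2 libraries. The GPR17 fold change, which carries no test, was -2.52 with them and -2.73 without them. A count of passing genes and an untested fold change are unlike measures, so the 2 are not compared.

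**Figure D3:**
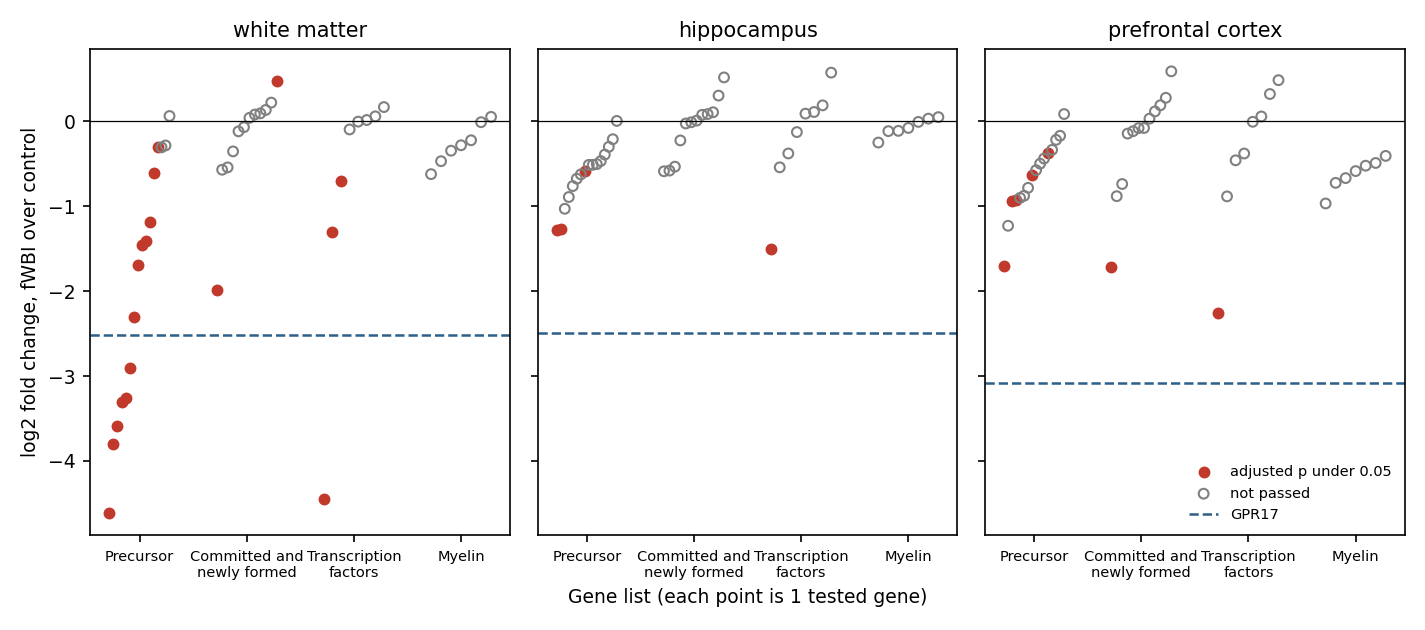
Log2 fold changes of fWBI over control for the tested genes of 4 oligodendrocyte lineage lists in each region; each point is 1 gene, filled where its adjusted p was under 0.05, and the dashed line is GPR17. GPR17 lies below every tested gene of these lists in hippocampus (-2.50) and prefrontal cortex (-3.08), whereas in white matter 7 genes, from DSCAM at -2.91 to TNR at -4.61, lie below it. GPR17 was chosen by its levels in these groups, so its place among the lists is a description and no test.

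Several lineage genes had fWBI effects that differed between regions. A test of the difference between fWBI effects gave 7 of 16 precursor genes a more negative change in white matter than in prefrontal cortex, where 5.44% of 16614 genes did so, and 9 of 16 relative to hippocampus, where 4.86% did. MYT1, for example, differed by -3.60 and -3.92. Neurons also express some precursor genes, such as DSCAM, and their part in these whole-tissue differences was not tested. OLIG2 went the other way, with differences of 1.58 against prefrontal cortex, where 4.57% of genes were more positive, and 0.87 against hippocampus, where 4.15% were. The second no longer passed without control white matter replicates 1 and 3 (0.50, edgeR adjusted p = 0.334). The GPR17 differences of 0.49 and -0.01 lay between them. Between hippocampus and prefrontal cortex 0 of 16614 genes passed by edgeR, with 302 at an unadjusted p under 0.05.

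After TBI none of these lineage genes passed. Over all genes 11 passed in white matter (0.0722%), and 0 in hippocampus and 0 in the prefrontal cortex, by edgeR. At an unadjusted p under 0.05 there were 2751, 1661 and 1826 genes, and DESeq2 called 740, 60 and 254. Of the 16 precursor genes, 4, 4 and 2 were lower at an unadjusted p under 0.05 in white matter, hippocampus and prefrontal cortex, with 1 more higher in prefrontal cortex, and DESeq2 called 2, 0 and 1. At an unadjusted p under 0.05 the committed list had 2, 1 and 1 genes, the transcription factor list 0, 2 and 0 and the myelin list 0, 1 and 1, all with 0 by DESeq2. BMP4 was at -0.74 ± 0.33, -1.46 ± 0.49 and 0.41 ± 0.28. PDGFRA was at -0.07 ± 0.09, 0.11 ± 0.08 and 0.01 ± 0.14, and OLIG2 at 0.30 ± 0.17, -0.13 ± 0.26 and -0.14 ± 0.15. The median of the precursor list was -0.13 in white matter, -0.21 in hippocampus and -0.14 in the prefrontal cortex, beside -0.29, -0.82 and -0.88 for GPR17. These GPR17 values are among those that chose the gene, so setting them beside the list is a description and no test. Without control white matter replicates 1 and 3, the white matter median of the list was -0.23 and OLIG2 was at 0.06. Set against TBI, fWBI lowered 12 of the 16 precursor genes in white matter (2.54% of all genes fell), 0 in hippocampus (0.0912%) and 3 in the prefrontal cortex (0.0773%). The hippocampal 0 stood beside 7 at an unadjusted p under 0.05 and 2 by DESeq2.

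Among the receptors related to GPR17, P2RY12, the ADP receptor of microglia, fell after fWBI in all regions. Its log2 fold change was -1.36 ± 0.21 in white matter (adjusted p = 0.000382), -1.93 ± 0.16 in hippocampus (2.48e-05) and -1.75 ± 0.18 in the prefrontal cortex (5.96e-05, each by edgeR). It ranged from 33.2 to 75.1 CPM in fWBI white matter, against 95.8 to 159 CPM in control white matter, and from 11.4 to 15.8 CPM in fWBI cortex, against 42.2 to 53.5 CPM in control cortex. In white matter 4 of 9 tested relatives fell, where 8.03% of all genes fell, among them P2RY14 (-0.95) and GPR171 (-0.83). Only P2RY12 passed without control white matter replicates 1 and 3. CYSLTR1, a cysteinyl leukotriene receptor, did not pass in any region (0.17 ± 0.21 in white matter, and -0.04 there without those control libraries). After TBI 0 relatives passed by edgeR in white matter, hippocampus or prefrontal cortex, with 5, 0 and 1 at an unadjusted p under 0.05 and 1, 0 and 0 by DESeq2. CYSLTR1 was then at 0.65 ± 0.21, 0.20 ± 0.26 and 0.54 ± 0.22.

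Of 14 tested genes for the signalling downstream of GPR17, which couples mainly to inhibitory G proteins and lowers cAMP, RAPGEF4 fell after fWBI. Over all genes 8.03% fell in white matter and 0.367% in prefrontal cortex, so its fall in white matter is not read as a result about this list. RAPGEF4, a cAMP-activated exchange factor also made by neurons, was at -1.05 ± 0.23 in white matter (adjusted p = 0.00629) and -0.44 ± 0.10 in prefrontal cortex (adjusted p = 0.0468). It did not pass without control white matter replicates 1 and 3 (-0.78, adjusted p = 0.0565). In hippocampus 0 of 14 passed by edgeR, with 1 at an unadjusted p under 0.05 and 0 by DESeq2, and the G protein subunits GNAI1 and GNAI3 were at 0.08 ± 0.13 and 0.11 ± 0.09. RAPGEF3, the related exchange factor placed downstream of GPR17 in mice, was at -0.10 ± 0.15, -0.24 ± 0.16 and -0.57 ± 0.19 in the 3 regions and did not pass.

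Enzymes that make or remove proposed GPR17 ligands moved the other way in white matter. Of 6 tested, 4 rose after fWBI there, where 8.82% of all genes rose. They were the leukotriene enzymes ALOX5 (1.51 ± 0.39) and its activating protein ALOX5AP (1.77 ± 0.24), the oxysterol enzyme CYP27A1 (0.93 ± 0.20) and the ATP-degrading ectoenzyme ENTPD1 (0.58 ± 0.18). LTC4S, which makes the cysteinyl leukotriene itself, was at 0.19 ± 0.31 and did not pass. Without control white matter replicates 1 and 3, ALOX5AP (1.55) and CYP27A1 (0.68) still passed. In the grey regions 0 of 6 passed by edgeR, with 0 in hippocampus and 2 in prefrontal cortex at an unadjusted p under 0.05, both lower, and 0 and 1 by DESeq2. ALOX5 was at 0.92 ± 0.44 and ALOX5AP at 0.18 ± 0.32 in hippocampus, and at 0.21 ± 0.29 and 0.14 ± 0.30 in prefrontal cortex. ALOX5 and ALOX5AP are myeloid genes. The 6 microglial and macrophage markers summed to 838 to 1047 CPM in fWBI white matter and 298 to 553 CPM in control white matter, with none at 0 in all libraries, and their part in this rise was not tested.

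Other cell types were checked with 6 marker lists in the fWBI and control comparison. Over all genes 8.03% fell and 8.82% rose in white matter, 0.215% and 0.527% in hippocampus, and 0.367% and 0.805% in prefrontal cortex. Counts of marker genes are therefore not comparable between regions without these shares. Pan-neuronal markers fell in white matter (7 of 13), where the 2 control libraries above are high, and 0 of 13 fell without them or in either grey region by edgeR (2 and 0 in hippocampus and prefrontal cortex at an unadjusted p under 0.05, and 0 by DESeq2). Astrocyte markers had 2 lower and 2 higher of 10 in white matter, 0 in hippocampus and 2 higher in prefrontal cortex, and without the 2 control libraries 2 lower and 1 higher in white matter. The glutamate transporter SLC1A2 fell by 2.25 ± 0.22 and the filament protein GFAP rose by 1.33 ± 0.21 in white matter. Microglial and macrophage markers had 1 lower and 3 higher of 6 in white matter, 2 and 2 in hippocampus and 2 and 1 in prefrontal cortex. CD74, the invariant chain of antigen presentation, rose by 3.05 ± 0.20, 3.19 ± 0.35 and 2.82 ± 0.30 in the 3 regions. Endothelial and mural markers had 3 lower and 2 higher of 8 in white matter, 0 and 1 in hippocampus and 0 in the prefrontal cortex. In white matter they had 0 lower and 1 higher (PECAM1, 1.61) by edgeR without the 2 control libraries, where FLT1, ABCC9 and ACTA2 were at adjusted p of 0.199, 0.0765 and 0.128. Fibroblast and meningeal markers rose, 1 of 5 in white matter, 3 in hippocampus (0.527% of all genes rose) and 4 in the prefrontal cortex (0.805%), and the 1 tested T cell marker did not pass. The 0 for astrocytes in hippocampus stood beside 6 at an unadjusted p under 0.05 and 1 by DESeq2, and the 0 for endothelial and mural markers in prefrontal cortex beside 4 and 2. The fibroblast and meningeal markers summed to 203 to 631 CPM in fWBI hippocampus and 98.7 to 174 CPM in control hippocampus. Of 9 proliferation genes TOP2A rose in white matter (1.69 ± 0.49, adjusted p = 0.0288), but not without control replicates 1 and 3 (adjusted p = 0.153), and 0 passed in the grey regions by edgeR (0 and 1 at an unadjusted p under 0.05 in hippocampus and prefrontal cortex, and 0 and 1 by DESeq2). The part of these cell types in the GPR17 levels was not tested.

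GPR17 lies inside the gene LIMS2 in the RefSeq annotation of assembly T2T-MMU8v2.0. The library kit keeps strand, but whether the counting used strand is not stated in these sources. LIMS2, an adaptor of integrin signalling, did not pass in any comparison with controls. After fWBI it was at -0.61 ± 0.24 in white matter, -0.23 ± 0.25 in hippocampus and -0.42 ± 0.17 in the prefrontal cortex (adjusted p = 0.103, 0.79 and 0.277). Per 100 LIMS2 counts, GPR17 had 7.00 to 11.8 counts in fWBI prefrontal cortex, 31.1 to 58.1 in TBI prefrontal cortex and 48.8 to 66.7 in control prefrontal cortex. Hippocampus held 11.6 to 61.1 after fWBI, 52.9 to 86.8 after TBI and 82.1 to 157 in controls. White matter held 31.4 to 89.3 after fWBI, 83.0 to 201 after TBI and 111 to 309 in controls. The fWBI ratios lay below all control ratios in each region but overlapped the TBI ratios in hippocampus and white matter. These ratios rest on the GPR17 levels that chose the gene, and the share of all genes with such a separation was not computed. TBI and control ratios overlapped in every region. The other tested neighbours, WDR33, POLR2D, IWS1 and in prefrontal cortex MYO7B, did not pass either. Over the neighbours 1, 0 and 1 genes had an unadjusted p under 0.05 in white matter, hippocampus and prefrontal cortex, and 0 passed by DESeq2.

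The spread of GPR17 between libraries of 1 group differed by region. Its coefficient of variation was 56.2% after fWBI, 15.7% after TBI and 22.2% in controls in hippocampus, and 42.1% after fWBI, 13.2% after TBI and 24.1% in controls in white matter. In prefrontal cortex it was 22.6% after fWBI, 16.7% after TBI and 31.2% in controls, so that the control value was the highest there. These coefficients, and the deviations below, include counting error, which was not separated from the spread between animals. It weighs most where counts are low, at 6 to 10 in fWBI prefrontal cortex and 6 to 33 in fWBI hippocampus. Animals 1 and 2 were the lowest of the fWBI group in hippocampus and white matter, and animal 4 was the highest in both. Whether an animal's deviation from its group mean, on the log2 scale, was shared between regions is independent of how GPR17 was chosen. Over 15 animals, and permuting animals within groups (100000 resamples, two-sided), Pearson's r between white matter and hippocampus was 0.50 and Spearman's rho 0.34 (permutation p = 0.212 and 0.326, adjusted 0.305 and 0.326 over the 3 pairs). Signs were alike in 10 of 15 animals, and r was 0.34 without the 2 animals farthest from the median. Between white matter and prefrontal cortex r was -0.40 and rho -0.47 (permutation p = 0.171 and 0.127, adjusted 0.305 and 0.279), with like signs in 6 animals and r = -0.29 without the 2 farthest. Between hippocampus and prefrontal cortex r was 0.27 and rho 0.38 (permutation p = 0.305 and 0.186, adjusted 0.305 and 0.279), with like signs in 9 animals and r = 0.56 without the 2 farthest. None of the 3 passed, so a shared deviation was not shown.

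**Figure D4:**
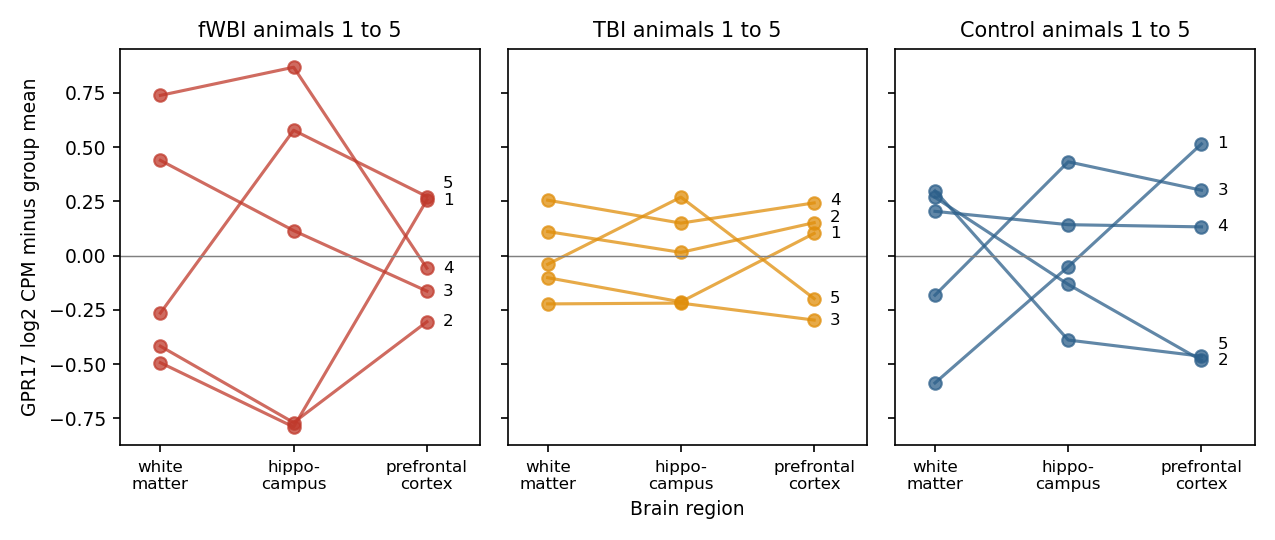
GPR17 log2 CPM of each animal minus its group mean, in the 3 regions; each line is 1 animal, numbered at the right, and 0 is the group mean. The fWBI animals spread most in hippocampus, where animals 1 and 2 lie at -0.79 and -0.77 and animal 4 at 0.87. Deviations include counting error, and those of fWBI prefrontal cortex rest on 6 to 10 counts per library.

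The genes whose level was most like GPR17 over the 45 libraries were ranked among 11448 genes with a symbol and a mean of at least 1 CPM. The correlations are descriptions across libraries that share animals, regions and treatment, and carry no p. P2RY12 came first (Pearson's r = 0.92), then LHFPL3 (0.88), OLIG2 (0.88), STK32A (0.86), UHRF1 (0.86), EPN2 (0.86), BCAN (0.83), SNX22 (0.83), SOX4 (0.82) and VCAN (0.81). Ranked by Spearman's rho, 8 of the 10 were again among the first 10. Without the fWBI libraries only STK32A, a kinase gene, was (r = 0.95 over 30 libraries, rank 2). The 10 genes still had r of 0.807 to 0.95 over those 30 libraries, and 4 of them were among the first 100. Like GPR17, all 10 had lower mean levels after fWBI than in controls in each region. For TBI over control in hippocampus and prefrontal cortex STK32A was at -0.54 and -0.55, P2RY12 at -0.13 and -0.35, and LHFPL3 at -0.19 and -0.32, with no test since these genes were picked for likeness.

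Within groups the likeness was of another kind. For deviations from the 9 group means, the highest r belonged to ITPR2 (0.62), KIAA1755 (0.57), SLC25A13 (0.57), RGS9 (0.57) and ATP10D (0.57), none of them among the 10 above. ITPR2, a calcium release channel, is on the list of committed and newly formed oligodendrocytes, and its fWBI over control change was 0.09, 0.11 and -0.08 in white matter, hippocampus and prefrontal cortex. P2RY12 had r = 0.01 by that measure. Of 43 lineage genes ranked, 4 had r over 0.8 over the 45 libraries, and PDGFRA had r = -0.37. Without the fWBI libraries, r was -0.85 for CA10, -0.78 for LUZP2, -0.77 for MMP16 and -0.61 for DSCAM. These precursor genes ran opposite to GPR17 there, whereas PCDH15 had r = 0.31 and TNR r = 0.68.

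**Figure D5:**
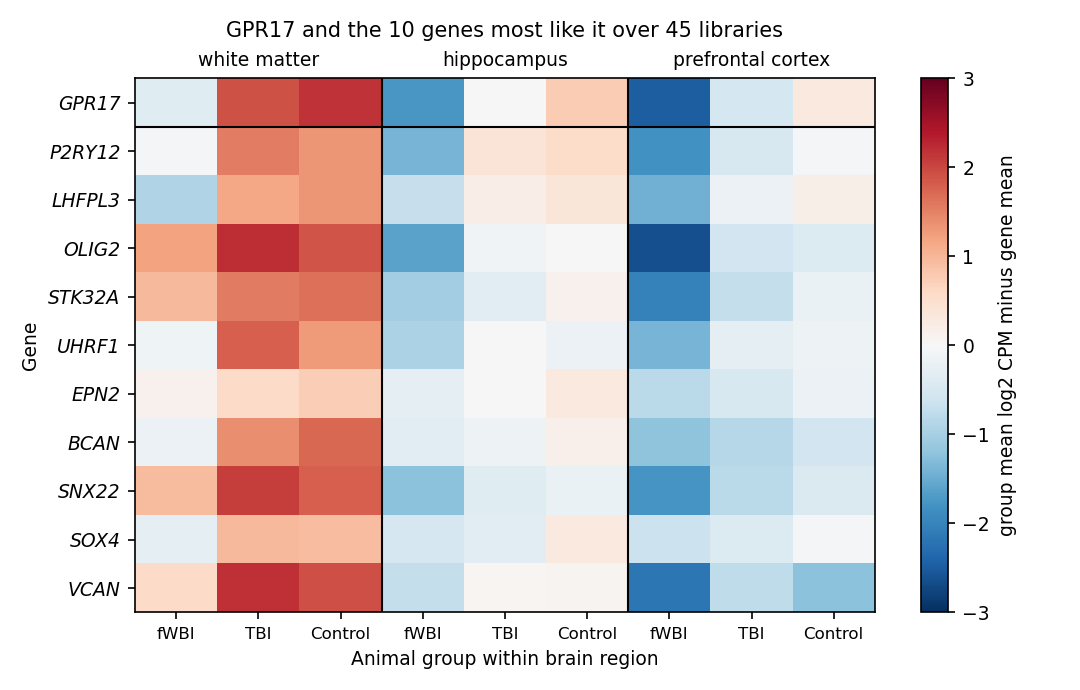
Group mean log2 CPM of GPR17 and the 10 genes most like it over 45 libraries, each relative to its mean over the 9 groups (colour scale, log2 units). Every row is highest in TBI or control white matter and lowest in fWBI prefrontal cortex.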

How the data were processed

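The authors deposited whole-number read counts per gene for 45 libraries, made from stranded, ribosomal RNA-depleted total RNA of saline-perfused brain. Per the submitters' processing notes, FastQC, STAR, featureCounts and DESeq2 were used. Tool versions, build, annotation and strand setting: not given in the sources used here. Groups came from the sample labels. In comparisons of groups within a region, p-values measure the spread between the 5 animals of a group. Those of the region and interaction tests measure the spread left within animals, and those of the deviations come from permuting animals within groups.

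Library totals were 6625435 to 12541507 counts. Counts were tested with edgeR 4.0.16 (R 4.3.3) by the quasi-likelihood test, with TMM scaling, filterByExpr and Benjamini-Hochberg adjustment over all tested genes at 0.05. The 15 libraries of a region were fitted together. Region and interaction fits had the animal as a block, since libraries of 1 animal deviated together (median correlation 0.288, over 0.1 in 41 of 45 pairs). CPM used TMM library sizes over the 16614 genes that passed in 45 libraries, and log2 CPM a prior count of 2. Deviations were permuted with scipy 1.17.1. The fits were tested on simulated data: for fWBI against control in white matter, edgeR recovered 79.6% of 98 genes changed 2-fold and 100% of 102 changed 4-fold, among 15332 genes. The interaction test of white matter minus prefrontal cortex recovered 38.1% of 105 genes changed 2-fold and 100% of 95 changed 4-fold. The simulated counts had the same extra spread for every gene and no animal effect, unlike the data.

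GPR17 and the 15 gene lists were chosen with earlier results of these data known. Of 169 list symbols, 134 had an ID. Genes named are the members past the threshold, up to 5 per list and comparison by smallest p, or the first 2 tested members where none passed, plus the 10 and 5 genes most like GPR17. MYRF, ID2, ID4, RAPGEF3, LTC4S, CYSLTR1, PDGFRA after fWBI, SMOC1, XYLT1 and SOX6 were named after their values were seen. A few list genes are counted but not reported by name here. Alternatives were DESeq2 1.42.0, other scaling and filters, other sets of libraries and each animal left out.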

Additional observations from a re-analysis of the deposited data

Results flagged for a closer look

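In 36 groups of 5 libraries checked, 3 held a library far from the others, and chance gives about 1 in 20. OLIG2 stood at 55.0 CPM in control hippocampus replicate 3. PDGFRA stood at 97.0 CPM in TBI hippocampus replicate 1 and at 86.5 CPM in TBI white matter replicate 3.

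The fWBI effect differed between white matter and prefrontal cortex, by the edgeR interaction test, for the list genes given here (log2 difference, white matter minus prefrontal cortex). Precursor genes were more negative in white matter, TNR by -3.84, MMP16 by -3.10, CA10 by -3.08, LUZP2 by -2.74 and DSCAM by -2.32. So were MYT1 at -3.60, BMP4 at -1.85 and GPR171 at -1.0. These are whole-tissue differences, and the part of neurons, which also express some precursor genes, was not tested. OLIG2 was less negative in white matter, at 1.58, and ALOX5AP at 1.66, ENTPD1 at 1.41 and ALOX5 at 1.29 were more positive there.

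Against hippocampus the same test also passed for several list genes. The differences were -3.92 for MYT1, -3.83 for TNR, -3.27 for CA10, -2.90 for MMP16, -2.84 for LUZP2, -2.34 for DSCAM and -0.82 for RAPGEF4. They were 0.87 for OLIG2, 1.60 for ALOX5AP and 0.83 for ENTPD1. Without control white matter replicates 1 and 3, the differences of GPR171 (-0.58, adjusted p = 0.253) and ALOX5 (1.17, adjusted p = 0.0719) against prefrontal cortex no longer passed by edgeR. Those of RAPGEF4 (-0.69, adjusted p = 0.0826), ENTPD1 (0.51, adjusted p = 0.259) and OLIG2 (0.50, adjusted p = 0.334) against hippocampus did not pass either.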

How the results depend on the processing

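Of the GPR17 fold changes recomputed, 251 moved by less than the spread between replicates, 6 moved by more and 6 changed sign; of the counts of genes called, 187 stayed within 1.5 times and 76 did not. Without control white matter replicates 1 and 3, GPR17 was at 2.38 for white matter over prefrontal cortex and 1.91 over hippocampus in controls, its fWBI effect at 0.0258 for white matter minus prefrontal cortex and -0.46 for white matter minus hippocampus, and its TBI effect at 0.121 and 0.062.

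The numbers of genes called depended on the tool and the libraries fitted; the cause was not tested. TBI against control in white matter (11 genes) gave 740 by DESeq2, 5 with 2 groups fitted, 1736 with 45 libraries, 0 with the replicate block and 0 without control replicates 1 and 3. In hippocampus (0) DESeq2 gave 60, and in prefrontal cortex (0) DESeq2 gave 254, 45 libraries 11 and the replicate block 56. For fWBI against control, white matter (2567) gave 1657 with 2 groups, 4069 with 45 libraries and 1687 without control replicates 1 and 3, hippocampus (114) 277 by DESeq2 and 73 with 2 groups, and prefrontal cortex (182) 466 by DESeq2 and 293 with the replicate block. For fWBI against TBI, white matter (1122) gave 1835 with 45 libraries, hippocampus (52) 135 by DESeq2 and 30 with the block, and prefrontal cortex (45) 93 by DESeq2. Hippocampus against prefrontal cortex in controls (2319) gave 3729 without control replicates 1 and 3. Interaction counts were then 1055 (1664) and 926 (1496) for fWBI, white matter minus prefrontal cortex and minus hippocampus, and 1 (3) and 0 (1) for TBI; size factors gave 5 for TBI, white matter minus prefrontal cortex. Replicate numbers share no animal between groups (median correlation 0.0128, over 0.1 in 13 of 45 pairs).

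Leaving out 1 animal at a time, the genes called ranged from 1756 to 3048, 72 to 266 and 73 to 220 for fWBI against control in white matter, hippocampus and prefrontal cortex, from 0 to 25, 0 to 3 and 0 to 23 for TBI against control, and from 748 to 1173, 33 to 59 and 27 to 54 for fWBI against TBI. In controls they ranged from 7897 to 10282 for white matter against prefrontal cortex, 6782 to 9503 against hippocampus and 1269 to 2380 for hippocampus against prefrontal cortex. Interaction counts ranged from 1022 to 2150 and 843 to 2001 for fWBI, white matter minus prefrontal cortex and minus hippocampus, and from 0 to 93 and 0 to 267 for TBI. GPR17 ranged from -2.75 to -2.39, -2.81 to -2.31 and -3.19 to -2.93 for fWBI over control, and from -0.41 to -0.22, -0.90 to -0.68 and -0.997 to -0.733 for TBI over control. Its effect differences changed sign for fWBI, white matter minus hippocampus (-0.18 to 0.22), and for TBI, hippocampus minus prefrontal cortex (-0.0874 to 0.167). Counts of 6 to 10 limit the precision of GPR17 in fWBI prefrontal cortex.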
